A study of Ananas comosus with 78 samples.

Results

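The 6 libraries described here compare the leaf base of pineapple plants on day 3 after ethephon with the leaf base of water-treated plants of the same day. They were chosen by title, as the 3 ethephon and the 3 water libraries of the "D" leaf labelled 4 days after treatment, out of 78 libraries in the series. The labels number the leaf base samplings from 1 to 5, read here as 6 h and days 1 to 4, the leaf base times in the Results of the study. The Methods name leaf samplings to day 5, under which the label could stand for day 4, so the day is not certain and every leaf base time below rests on this reading. The series as a whole covers the shoot apex and the leaf base at several times after the same treatments. The plants were Ananas comosus from a commercial field, of a cultivar that the labels name 'MD1' in one field and 'MD2' in another, both with the clone name PRI 73-50. The plant centre was filled with 10 ml of water in the control and with 50 mg of ethephon in the treated plants. Both groups share the field, the day and the tissue, which is the base of the most recently matured leaf, and each replicate is a pool from 3 plants. The leaf base was taken by the study as tissue outside the apex, where flowering is induced.

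Ethephon sets free ethylene once inside the plant, and growers use it to force pineapple to flower. Plants make ethylene from 1-aminocyclopropane-1-carboxylate (ACC), which ACC synthase (ACS) forms and ACC oxidase (ACO) converts to ethylene. In Arabidopsis the receptors and the kinase CTR1 hold the pathway off when ethylene is absent, EIN2 passes the signal on, and EIN3/EIL proteins turn on target genes, among them the ethylene response transcription factors (ERTF).

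The deposited values are counts of read pairs per gene. The 3 control libraries held 6616567, 7180761 and 5818854 counts and the 3 ethephon libraries 5130171, 6002280 and 5165794. Pearson correlations of log2 CPM (counts scaled to a common library size) over 13957 genes were 0.966 to 0.972 between control libraries, 0.972 to 0.980 between ethephon libraries and 0.878 to 0.922 between the groups. The labels place control replicates 1 and 2 on 1 flow cell, control replicate 3 on another, and the 3 ethephon libraries together on a lane that held no leaf base control of this day. Lane and treatment therefore cannot be told apart. As a check of the tissue, the summed level of 6 apical meristem genes, among them WUSCHEL and KNOTTED-like homologs, was 4.45 to 5.58 CPM in the control and 3.59 to 5.46 CPM in the ethephon leaf bases. The same sum was 70.5 to 118 CPM in control and 311 to 329 CPM in ethephon apices of that day, and the WUSCHEL homolog Aco006233 had no count in any of the 6 leaf base libraries. No leaf markers could be checked, because the gene descriptions at hand hold no photosynthesis or CAM gene. In tissue samples, fewer cells of a type and less RNA per cell cannot be told apart.

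On day 3 the leaf base of ethephon-treated plants differed from the control in 1575 of 22092 genes tested, of which 891 were higher and 684 lower. Genes were counted as differentially expressed (DE, here "called") at a Benjamini-Hochberg adjusted p under 0.05 in edgeR's quasi-likelihood test and a change of at least 2-fold. These are 7.13% of the genes tested, 4.03% called up and 3.10% called down. The median log2 fold change was 1.46 in the genes called up, -1.53 in those called down and -0.02 over all genes tested. A change of at least 4-fold was seen in 209 genes that rose and in 195 that fell. Exons of another gene overlap 68 of the genes called up and 40 of those called down, and their counts are less certain because strand was not used. Leaving out 1 library at a time gave 1342 to 1594 called genes, and 1037 genes were called in the same direction in all 6 of these fits. A standard error (SE) given below is the log2 fold change divided by the square root of the quasi-likelihood F statistic.

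**Figure D1:**
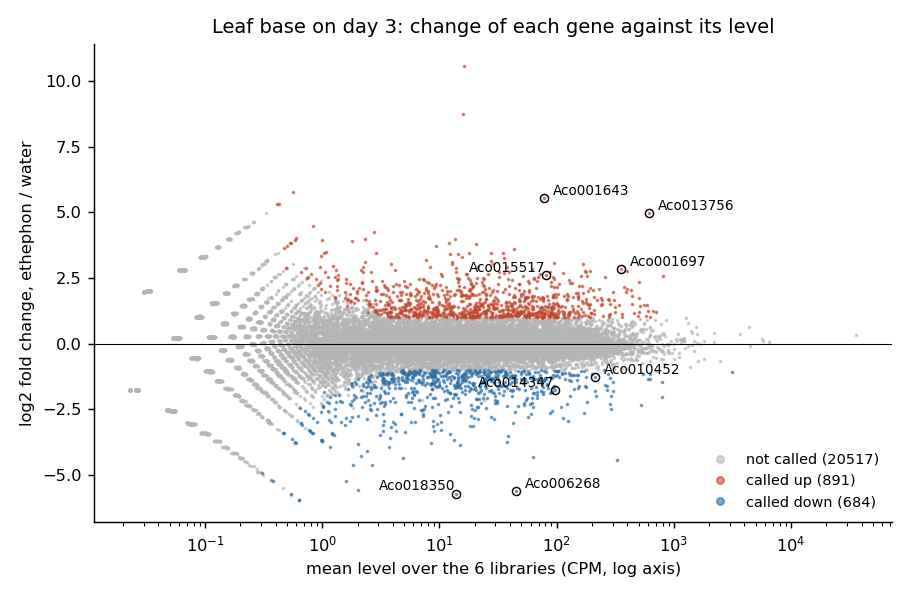
Log2 fold change of ethephon over water (y axis) against the mean level over the 6 libraries in CPM (log x axis), 1 point per gene tested, in red for the 891 genes called up, in blue for the 684 called down and in grey for the rest. Circled genes are described in the text, and called genes lie at levels from low to high expression on both sides.

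Among the genes of ethylene synthesis, 1 of 3 ACS genes rose, and of 4 ACO genes 1 rose and 2 fell. The ACS gene Aco015517 (linkage group 3, 12717867 to 12722309, minus strand) stood at 19.2, 37.6 and 10.3 CPM in the control and at 127, 149 and 142 CPM after ethephon. All 3 ethephon libraries lay above all 3 controls of the day, and the log2 fold change was 2.60 ± 0.29 (SE, adjusted p = 1.61e-05). Leaf base controls of other samplings reached 608 CPM, far above these ethephon libraries. The other ACS genes gave log2 fold changes of 0.15 (Aco028694) and -0.30 (Aco000276), which did not pass the test, and the sign of both turned when the flow cell entered the fit. An ACO gene, Aco015240 (linkage group 5, 1036921 to 1038593, plus strand), fell from 295, 267 and 268 CPM to 106, 166 and 108 CPM. This was a log2 fold change of -1.15 ± 0.16 (adjusted p = 1.05e-04), and the groups did not overlap. A second ACO gene, Aco003285, held 6.29, 6.01 and 1.48 CPM in the control against 0.195, 0.359 and 0.202 CPM (log2 fold change -4.10 ± 0.68, adjusted p = 5.83e-04), so that it was at 1 or 2 counts per library after ethephon. Aco005735, also an ACO gene, moved the other way, from 0.307, 0.140 and 0.657 CPM to 2.14, 2.33 and 2.63 CPM. Its log2 fold change was 2.63 ± 0.59 (adjusted p = 0.00569), and with the flow cell in the fit it was 1.78 and not called (adjusted p = 0.198). The fourth ACO gene, Aco001358, changed by less than 2-fold (-0.63 ± 0.13, adjusted p = 0.00385), and its exons overlap another gene.

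Of the signalling genes, 1 of 5 receptors fell, 1 of 3 EIN3/EIL genes rose, and neither CTR1 nor EIN2 was called. Receptors bind ethylene and, in Arabidopsis, repress the response until they do. The receptor gene Aco010452 (linkage group 3, 2575324 to 2582500, minus strand) was at 290, 312 and 294 CPM in the control and at 130, 103 and 144 CPM after ethephon. The groups were far apart relative to their spread, with a log2 fold change of -1.28 ± 0.14 (adjusted p = 1.15e-05). The other 4 receptors had log2 fold changes from -0.15 to 0.93, and none was called. Among them, Aco010603 (0.54, adjusted p = 0.00922) missed only the 2-fold limit. The largest difference in the pathway per unit of error was in the EIN3/EIL gene Aco001697 (linkage group 18, 8650576 to 8653816, plus strand), which codes for a factor of the class that turns on ethylene targets. It rose from 99.6, 77.0 and 79.0 CPM to 602, 571 and 686 CPM, a log2 fold change of 2.84 ± 0.14 (adjusted p = 2.89e-08). Another EIN3/EIL gene, Aco017871, went from a mean of 385 ± 13.3 CPM (SD, n = 3) to 228 ± 8.44 CPM (SD, n = 3). Its change of -0.78 ± 0.11 (adjusted p = 1.73e-04) missed only the 2-fold limit. So did a further EIN3/EIL gene (Aco015335, 0.79, adjusted p = 0.00787) and EIN2 (Aco005120, 0.60, adjusted p = 0.00433). CTR1 (Aco007771, 0.27, adjusted p = 0.142) did not pass the test.

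**Figure D2:**
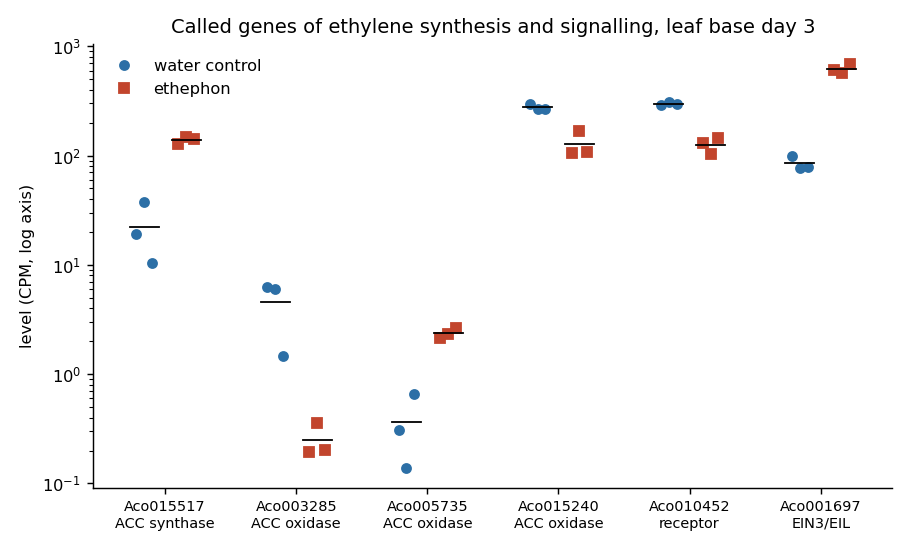
Level in CPM (log y axis) of the 6 called genes of ethylene synthesis and signalling in each of the 6 libraries, with blue circles for the water control, red squares for ethephon and black bars for group means. In each gene the 3 ethephon libraries lie on 1 side of the 3 controls, for example at 571 to 686 CPM against 77.0 to 99.6 CPM in Aco001697.

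ERTF genes moved in both directions, with 12 of 33 called up and 7 called down, and the median log2 fold change of the 33 was 0.43. The study picked this list from these samples, so its counts are not independent evidence of a direction. The group IIb gene Aco002673 was at 3.68, 2.38 and 1.97 CPM in the control and at 28.6, 53.3 and 32.1 CPM after ethephon (log2 fold change 3.79 ± 0.29, adjusted p = 6.03e-07). Its ethephon libraries exceeded every leaf base control of the series, the highest of which was 19.3 CPM. Group IXb Aco012858 went from 8.28, 6.71 and 4.43 CPM to 48.8, 84.1 and 59.6 CPM (3.27 ± 0.23, adjusted p = 3.4e-07). Group IX holds, in Arabidopsis, factors that link ethylene and jasmonate in defence. Group IIIc Aco022517, whose exons overlap another gene, rose from 3.07, 0.978 and 0.657 CPM to 34.8, 18.8 and 23.2 CPM (3.99 ± 0.39, adjusted p = 4.99e-06). Leaf base controls of other samplings reached 76.7 CPM for Aco012858 and 68.5 CPM for Aco022517, so neither exceeded every control of the series. Group III holds the cold-response factors of Arabidopsis.

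Group VIIa, whose Arabidopsis members act in low oxygen, had 3 of its 5 genes called up. The shares to set beside this are 12 of 33 in the whole ERTF list and 4.03% of all genes tested. Aco009511 of this group rose from 256, 219 and 203 CPM to 588, 730 and 662 CPM (1.52 ± 0.13, adjusted p = 2.05e-06), above the highest of all 15 leaf base controls (570 CPM). Its relative Aco012157 was at 488, 376 and 318 CPM against 769, 1136 and 924 CPM (1.23 ± 0.17, adjusted p = 1.12e-04). Aco002699, also of VIIa, was at 3.84, 0.419 and 0.164 CPM and then at 16.9, 12.9 and 11.7 CPM (3.19 ± 0.55, adjusted p = 7.2e-04). Leaf base controls of other samplings reached 777 CPM for Aco012157 and 61.7 CPM for Aco002699. The remaining genes called up were Aco010738 (group VI, 2.2), Aco011669 (IXa, 1.86), Aco006567 (VIIIa, 1.76), Aco001318 (Xb, 1.62), Aco002824 (Ib, 1.22) and Aco001600 (IVa, 1.18), given with their log2 fold changes. Of these, Aco010738 lost the call with the flow cell in the fit (1.57, adjusted p = 0.0517), and Aco001600 fell just under the 2-fold limit without ethephon replicate 1 (0.95).

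Both group Xa genes were among the 7 that fell. Aco003196 dropped from 15.2, 43.3 and 15.6 CPM to 1.17, 1.08 and 3.84 CPM (-3.65 ± 0.49, adjusted p = 8.37e-05), and Aco017803 from 9.36, 21.7 and 22.2 CPM to 7.98, 3.94 and 4.24 CPM (-1.74 ± 0.34, adjusted p = 0.00206). In group VI, Aco012562 fell from 29.1, 29.1 and 54.9 CPM to 7.39, 3.77 and 4.65 CPM (-2.86 ± 0.30, adjusted p = 9e-06), so that this group had 1 gene up and 1 down. The group IIIe gene Aco006004 had 24, 22 and 31 counts in the control and 0, 0 and 1 after ethephon (adjusted p = 8.07e-05), too few in the latter for a stable fold. Also lower were Aco018224 (Xc, -2.67), Aco016346 (Ia, -2.10) and Aco010430 (IXc, -1.53). The call of Aco010430 was lost with the flow cell in the fit, in the joint fit of the leaf base libraries (-1.52, adjusted p = 0.0861) and without control replicate 1 (-1.13), ethephon replicate 2 (-1.40) or ethephon replicate 3 (-1.26). Outside this list, 1 of 6 further AP2/ERTF genes was called, Aco006074, annotated as CRF2, at 1.07, 0.839 and 1.48 CPM against 5.64, 3.59 and 5.05 CPM (2.04 ± 0.39, adjusted p = 0.00187, and 1.64 with adjusted p = 0.076 under the flow cell term).

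**Figure D3:**
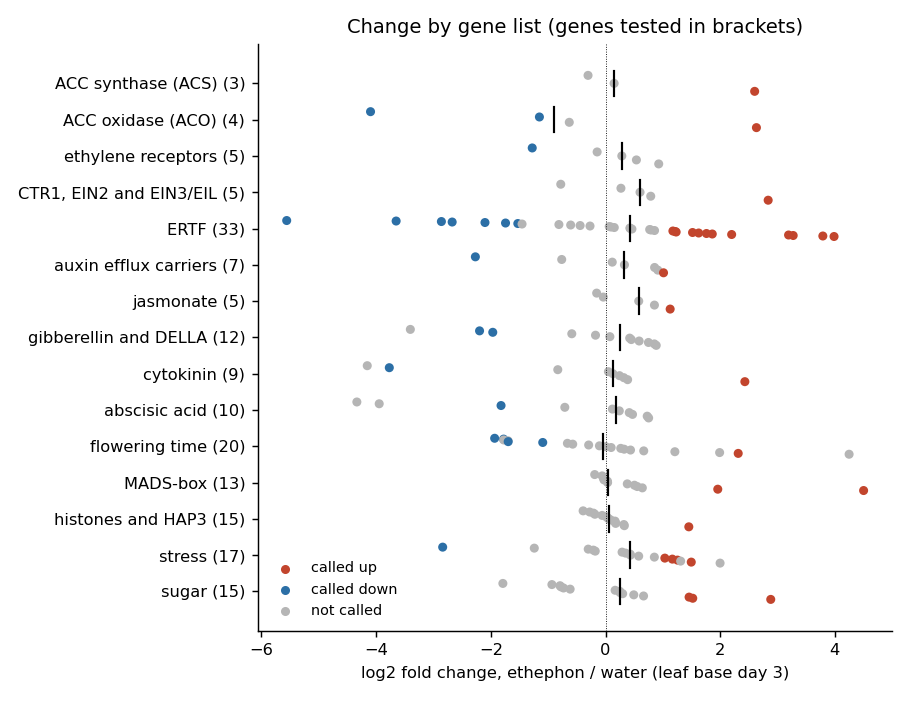
Log2 fold change of ethephon over water on day 3 (x axis) of the tested genes in 15 gene lists (rows, with the number of genes tested in brackets), in red where called up, blue where called down and grey where not called, with black bars for the list medians. Called genes lie on both sides of 0 in the ACO, ERTF, auxin efflux, cytokinin, flowering time and stress lists.

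The lists used here hold 267 genes that the study names, 258 of them tested, and 33 rose and 24 fell with a median log2 fold change of 0.23. Like the ERTF list, they were drawn from the study's account of these samples and are no independent evidence. Over all genes tested, 4.03% were called up and 3.10% down, the shares to set beside the count of each list. Across all 15 leaf base controls of the series, the ethephon libraries of day 3 lay above every control for 12 of the 33 and below every control for 15 of the 24. Over all called genes these shares were 33.8% of the rises and 39.0% of the falls. The controls of day 3, against which the genes were called, are among the 15. Among the hormone genes, few members of a list moved together. The auxin efflux carriers, which move auxin out of cells, had 1 of 7 up and 1 down. Aco000734 fell from 38.5, 34.0 and 39.4 CPM to 12.3, 3.59 and 7.88 CPM (-2.27 ± 0.28, adjusted p = 4.14e-05), while Aco007145 stood at 111, 101 and 61.9 CPM against 167, 194 and 200.4 CPM, just past 2-fold (1.01 ± 0.17, adjusted p = 7.44e-04). Without control replicate 3 the change of Aco007145 was 0.80, and without ethephon replicate 2 or 3 it was 0.99 or 0.96, all below the limit. No influx transporter (0 of 3) and no auxin response gene (0 of 6) was called by edgeR or by DESeq2, although 2 and 1 of them had an unadjusted p under 0.05. The influx transporter Aco030876 (0.86, adjusted p = 0.0139) and the auxin response gene Aco009671 (0.44, adjusted p = 0.035) missed only the 2-fold limit. Over all genes, 3529 of 22092 passed the adjusted p with no limit on the fold change.

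Gibberellin genes had 2 of 12 called down (3.10% of all genes), 1 for an enzyme of gibberellin synthesis and 1 for an enzyme of inactivation. Aco009790, a GA20 oxidase of the synthesis pathway, was at 2.61, 6.01 and 9.85 CPM against 2.92, 0.538 and 0.606 CPM (-2.2 ± 0.58, adjusted p = 0.0158), and control replicate 1 lay below ethephon replicate 1. Its call was lost without control replicate 3 (-1.70), ethephon replicate 2 (-1.80) or ethephon replicate 3 (-1.87). Aco007347, a GA2 oxidase, an enzyme that inactivates gibberellins, went from 15, 13 and 12 counts to 2, 2 and 4 (-1.97 ± 0.55, adjusted p = 0.0235). It lost the call with the flow cell in the fit (-1.93), in DESeq2 (-2.00), and without control replicate 1 (-1.87), ethephon replicate 1 (-1.81) or ethephon replicate 2 (-1.75).

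Of 9 cytokinin genes, 2 annotated as cytokinin oxidoreductases were called, in opposite directions. Aco023264 rose from 2.30, 1.26 and 3.28 CPM to 12.8, 12.7 and 11.7 CPM (2.43 ± 0.30, adjusted p = 4.92e-05), above all 15 leaf base controls. Aco006318 had 9, 6 and 7 counts in the control and 0, 1 and 0 after ethephon (adjusted p = 0.0159), and its call was lost with the flow cell in the fit (-3.82) and without control replicate 1 (-3.59), ethephon replicate 1 (-3.32) or ethephon replicate 3 (-3.35). Of 5 jasmonate genes 1 was called, Aco003903, a homolog of NINJA, in Arabidopsis an adaptor of jasmonate repressors. It had 4.45, 6.99 and 6.57 CPM against 14.4, 11.5 and 14.3 CPM (1.13 ± 0.24, adjusted p = 0.00358), and without control replicate 1 (0.95) or with the flow cell in the fit (0.99) it was below 2-fold. At other samplings its leaf base controls reached 52.7 CPM. The other gene annotated as NINJA, Aco012414, was not called (0.58 ± 0.19, adjusted p = 0.0531). Of 10 abscisic acid genes, 1 fell. Aco007857, which codes for an abscisic stress ripening protein, dropped from 95.9, 183 and 77.7 CPM to 29.0, 37.7 and 36.2 CPM (-1.82 ± 0.25, adjusted p = 1.01e-04).

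Flowering time genes had 1 of 20 called up and 4 called down, against 4.03% and 3.10% of all genes. The GIGANTEA-like gene Aco014347 (linkage group 5, 644995 to 656425, minus strand), whose Arabidopsis counterpart joins the circadian clock to flowering, fell from 108, 167 and 175 CPM to 51.0, 39.4 and 43.4 CPM. This gave -1.78 ± 0.17 (adjusted p = 5.48e-06), with all ethephon libraries below all 15 leaf base controls. Aco003091, a CONSTANS-like zinc finger gene, fell from 50.9, 57.0 and 56.2 CPM to 19.3, 7.71 and 17.0 CPM (-1.93 ± 0.23, adjusted p = 3.18e-05). Its leaf base controls at other samplings went down to 13.7 CPM. CONSTANS mediates the response to day length in Arabidopsis. The EARLY FLOWERING-like gene Aco030106 was lower as well, at 7.82, 5.31 and 5.91 CPM against 1.75, 2.15 and 2.02 CPM (-1.70 ± 0.32, adjusted p = 0.00158). A second gene of that class, Aco009476, had -1.09 ± 0.30 (adjusted p = 0.021), and its call was lost in the joint fit of all leaf base libraries, with the flow cell in the fit (-1.02), and without control replicate 1 (-0.78), ethephon replicate 1 (-1.06) or ethephon replicate 2 (-0.95). The gene that rose, the TCP factor Aco015741, whose exons overlap another gene, went from 2.76, 1.82 and 3.45 CPM to 9.14, 17.4 and 13.9 CPM (2.31 ± 0.31, adjusted p = 8.83e-05).

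MADS-box factors specify floral meristems and organs, and 2 of the 13 tested were called, both up (4.03% of all genes were called up). Aco015104, annotated as AGAMOUS-like 14, stood at 3.53, 1.68 and 2.96 CPM against 7.39, 17.2 and 7.48 CPM (1.96 ± 0.38, adjusted p = 0.00188), with ethephon replicate 2 above the other libraries. Aco012428, annotated as FUL2, had 1, 0 and 0 counts in the control and 7, 17 and 2 after ethephon (adjusted p = 0.00912). It was not called without ethephon replicate 2 (adjusted p = 0.0875) or with the flow cell in the fit (adjusted p = 0.0798). None of the 10 meristem homeobox genes tested and none of the 3 SBP genes was called by edgeR or by DESeq2. A call also needs a 2-fold change, and 6 and 1 of these genes had an unadjusted p under 0.05.

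Sugar genes had 3 of 15 called up and none called down, against 4.03% and 3.10% of all genes. Aco017378, a sucrose phosphate synthase, which catalyses the committed step of sucrose synthesis, rose from 3.07, 4.33 and 2.30 CPM to 16.1, 34.1 and 23.6 CPM (2.88 ± 0.30, adjusted p = 9e-06), above all 15 leaf base controls (at most 12.1 CPM). The trehalose phosphate synthase Aco012107, of a family whose product signals sugar status in plants, rose from 27.8, 17.0 and 30.2 CPM to 73.7, 62.6 and 73.0 CPM (1.46 ± 0.18, adjusted p = 4.3e-05). Leaf base controls of other samplings reached 276 CPM for this gene. Aco014404, a solute carrier, went from 10.6, 7.83 and 9.53 CPM to 22.4, 29.9 and 29.3 CPM (1.52 ± 0.19, adjusted p = 5.04e-05). A second gene annotated as trehalose phosphate synthase, Aco001024, which overlaps another gene and comes from the short set of described genes below, rose from 6.75, 8.94 and 5.91 CPM to 21.4, 29.8 and 28.9 CPM (1.85 ± 0.21, adjusted p = 1.98e-05).

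Of 17 stress genes, 4 rose and 1 fell. The remorin gene Aco014830, for a protein of plasma membrane domains, rose from 5.83, 5.73 and 6.57 CPM to 15.8, 19.7 and 16.6 CPM (1.5 ± 0.20, adjusted p = 1.06e-04), and the nodulin-like gene Aco007544 from 34.8, 32.1 and 37.1 CPM to 80.7, 83.4 and 73.6 CPM (1.17 ± 0.12, adjusted p = 1.02e-05). Both were above all 15 leaf base controls. The late embryogenesis abundant gene Aco002475 (1.26 ± 0.29) lost the call in the joint fit and without control replicate 3 (0.98) or ethephon replicate 2 (0.94). The heat stress factor Aco027352 (1.03 ± 0.28) lost it with the flow cell in the fit (0.94) and without control replicate 1 (0.94) or ethephon replicate 1 (0.86). Aco010143, a homolog of PGR5, which in Arabidopsis acts in cyclic electron flow of photosynthesis, had 27, 19 and 10 counts in the control against 3, 2 and 1 (-2.84 ± 0.60, adjusted p = 0.0037), and -2.07 with an adjusted p of 0.119 under the flow cell term.

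In the lists on growth, chromatin and cell division, 15 histone and HAP3 genes and 14 chromatin and DNA genes gave 1 call each, near the 7.13% of all genes. The histone H2A gene Aco014218 rose from 15.2, 13.1 and 3.61 CPM to 33.3, 27.4 and 29.1 CPM (1.45 ± 0.32, adjusted p = 0.00498), and the histone deacetylase gene Aco016684 fell from 10.6, 13.6 and 10.3 CPM to 5.64, 4.66 and 2.22 CPM (-1.48 ± 0.29, adjusted p = 0.00246). For Aco014218, a leaf base control of another sampling reached 198 CPM. Deacetylases remove acetyl marks from histones. Aco010247, a homolog of the cyclin-dependent kinase inhibitor SIAMESE, fell from 17.2, 10.2 and 16.9 CPM to 4.86, 4.84 and 5.25 CPM (-1.59 ± 0.25, adjusted p = 4.26e-04). The growth regulatory factor Aco015755 rose from 3.38, 3.91 and 3.78 CPM to 10.1, 12.4 and 7.68 CPM (1.42 ± 0.26, adjusted p = 0.00146), as 1 of 6 in its list.

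Of 8 kinase and phosphatase genes, the protein kinase Aco009459 rose from 29.3, 25.9 and 25.0 CPM to 80.7, 103 and 102 CPM (1.81 ± 0.14, adjusted p = 6.03e-07). A leaf base control of another sampling reached 156 CPM for this gene. A second protein kinase, Aco010095, was called down at -1.02 ± 0.31 (adjusted p = 0.0351). That call was lost with the low-count filter, in the joint fit, with the flow cell in the fit (-0.93) and without control replicate 1 (-0.88), ethephon replicate 2 (-0.67) or ethephon replicate 3 (-1.05). The OVATE gene Aco011137 (-1.95 ± 0.48, adjusted p = 0.0102) was at 10.3, 11.6 and 2.79 CPM against 2.72, 2.69 and 1.01 CPM, so that control replicate 3 lay next to the ethephon libraries. Its change was -0.40 (adjusted p = 0.741) with the flow cell in the fit, and it lost the call without control replicate 2 (-1.61) or ethephon replicate 3 (-1.63). Of 8 protein turnover genes, the BTB/POZ gene Aco018361 was called up (1.06 ± 0.15, adjusted p = 1.45e-04), and fell just below 2-fold without control replicate 3 (0.95) or ethephon replicate 2 (0.99).

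A description was at hand for 857 of the genes tested, and 30 of these rose and 25 fell, which is 6.42% and near the 7.13% of all genes. The WRKY factor Aco000358, of a family that regulates defence and senescence, rose from 25.9, 17.7 and 15.1 CPM to 115, 132 and 129 CPM (2.65 ± 0.17, adjusted p = 1.86e-07), and 4 other WRKY genes were not called. Of 6 MYB genes, 2 fell. Aco000681, annotated as myb domain protein 78, dropped from 81.5, 57.7 and 85.4 CPM to 18.7, 6.28 and 13.3 CPM (-2.58 ± 0.27, adjusted p = 8.57e-06). Its leaf base controls at other samplings went down to 5.47 CPM. Aco000847 overlaps another gene and had 9, 14 and 7 counts against 2, 0 and 0, with a call that was lost under the flow cell term (-3.0) and without control replicate 2 (-3.12), ethephon replicate 2 (-2.82) or ethephon replicate 3 (-2.90). Among 8 basic helix-loop-helix genes, Aco000904 rose from 19.3, 25.7 and 17.9 CPM to 55.4, 78.7 and 61.4 CPM (1.6 ± 0.17, adjusted p = 9.72e-06) and Aco000329 fell from 26.4, 20 and 20.9 CPM to 10.7, 10.8 and 9.50 CPM (-1.14 ± 0.19, adjusted p = 4.82e-04). Another, Aco000773 (-1.07 ± 0.31), lost the call in DESeq2 and without control replicate 3 (-0.81), ethephon replicate 1 (-0.96) or ethephon replicate 3 (-1.03).

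The zinc transporter Aco000559 rose from 61.1, 54.6 and 58.1 CPM to 163, 133 and 174 CPM (1.41 ± 0.13, adjusted p = 3.39e-06). Aco000998, a disease resistance gene of the CC-NBS-LRR class, went from 1.38, 1.40 and 2.46 CPM to 5.64, 5.92 and 4.65 CPM (1.61 ± 0.35, adjusted p = 0.00483), and to 1.10 with an adjusted p of 0.179 under the flow cell term. Of 14 ribosomal protein genes with a description, none was called by edgeR or by DESeq2, which also needs a 2-fold change. Of the 14, 10 had an unadjusted p under 0.05, and the median log2 fold change of the 14 was -0.34.

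The largest rises, among genes of at least 5 CPM in the higher group that were called in all 6 leave-one-out fits, were mostly in genes without a description here. Aco001643 (linkage group 18, 9059367 to 9062433, plus strand) was at 4.30, 2.52 and 2.63 CPM in the control and at 119, 218 and 119 CPM after ethephon (5.56 ± 0.28, adjusted p = 2.89e-08). Aco013756 (linkage group 13, 10451151 to 10452458, minus strand) had 33.4, 73.6 and 3.45 CPM against 677, 1856 and 1008 CPM (4.96 ± 0.64, adjusted p = 6.57e-05), and its controls spread widely. Both lay above all 15 leaf base controls of the series. Aco013450 went from 5.37, 10.6 and 2.79 CPM to 73.1, 88.6 and 77.8 CPM (3.61 ± 0.27), and Aco009931 from 4.76, 5.17 and 3.45 CPM to 57.2, 49.1 and 45.3 CPM (3.46 ± 0.19). Leaf base controls of other samplings reached 242 CPM for Aco013450 and 313 CPM for Aco009931. The log2 fold changes of the others were 4.25 (Aco016545, which overlaps another gene), 3.85 (Aco013595, with controls of up to 95.5 CPM at other samplings), 3.73 (Aco014489) and 3.47 (Aco012480), beside the ERTF genes Aco022517 and Aco002673.

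The fitted changes of Aco027531 and Aco028538 were larger still but rest on 2 libraries. Aco027531, on an unplaced scaffold, had no count in the 3 controls and 81, 459 and 0 counts after ethephon, and Aco028538, on another, had 1, 0 and 0 against 79, 440 and 0. Their counts run in parallel, and pairs that match several places were counted at each. Whether the genes share reads was not tested. Ethephon replicate 3 lay with the controls, and no fold is given for either gene.

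Among the largest falls, Aco018350 (linkage group 7, 11709464 to 11715075, minus strand) went from 26.7, 28.2 and 26.4 CPM to 0.584, 0.538 and 0.404 CPM (-5.70 ± 0.28, adjusted p = 2.89e-08). Aco006268 (linkage group 14, 3753864 to 3758081, plus strand) fell from 58.5, 70.2 and 133 CPM to 1.56, 1.26 and 2.63 CPM (-5.61 ± 0.36, adjusted p = 2.1e-07). Both were below all 15 leaf base controls. Aco003129 (linkage group 6, 14012972 to 14013977, minus strand) fell from 118, 89.6 and 153 CPM to 6.61, 4.84 and 6.87 CPM (-4.32 ± 0.22, adjusted p = 2.89e-08), but controls of day 1 were also low, down to 3.25 CPM. Aco011448 fell from 88.2, 72.8 and 49.9 CPM to 7.59, 3.23 and 8.08 CPM (-3.52 ± 0.27), and Aco009829 from 56.6, 94.9 and 59.8 CPM to 8.17, 2.51 and 5.46 CPM (-3.75 ± 0.29). The others were Aco019527 (-4.62), Aco002246 (-4.35), Aco009870 (-3.94, overlapping another gene), Aco022058 (-3.84), Aco002343 (-3.79) and Aco015158 (-3.58), beside the ERTF gene Aco003196.

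Levels in the control leaf base also moved between samplings, so the day 3 values were set against all 15 leaf base control libraries. All 3 ethephon libraries lay above every one of these controls in 953 of 22092 genes (4.31%) and below every one in 726 (3.29%). Of the 891 genes called up, 301 (33.8%) were above all 15, and of the 684 called down, 267 (39.0%) were below all 15. The EIN3/EIL gene Aco001697 shows how far controls moved. Its control levels were 506, 524 and 492 CPM on day 1, 103, 63.9 and 72.4 CPM on day 2, as low on day 3, and 497, 338 and 470 CPM on day 4. After ethephon it was at 116, 132 and 126 CPM on day 2 and at 293, 288 and 234 CPM on day 4, so that the ethephon libraries of day 3 were only a little above the controls of day 1. The WRKY gene Aco000358 had controls of 232, 168 and 261 CPM on day 1 and of 200.5, 156 and 216 CPM on day 4, above the 115 to 132 CPM of the ethephon libraries on day 3. Controls of Aco009931 likewise stood at 147, 313 and 271 CPM on day 1 and at 151, 204 and 115 CPM on day 4. The receptor Aco010452, by contrast, had controls between 176 and 362 CPM at all samplings, and its ethephon libraries of day 3 were below all of them. Aco001643 reached at most 75.7 CPM in a control, on day 1, against at least 119 CPM after ethephon on day 3.

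**Figure D4:**
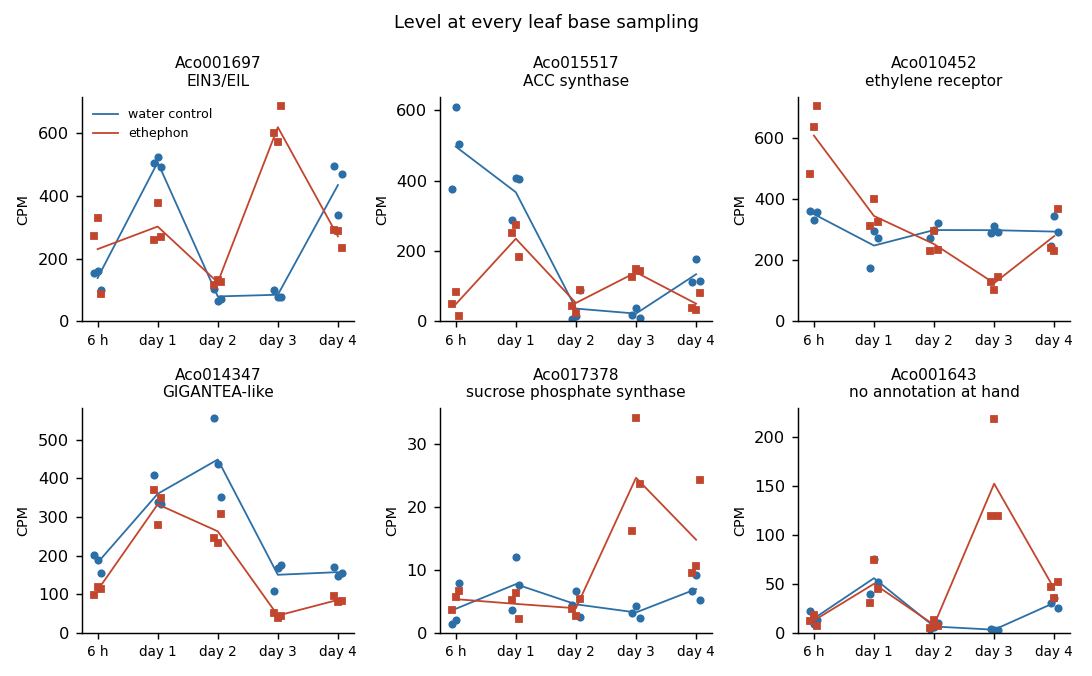
Level in CPM (y axis, from 0) of 6 genes at each of the 5 leaf base samplings (x axis), with points for single libraries and lines through the means of 3, in blue for the water control and in red for ethephon. Aco001697 is high in control leaf bases on days 1 and 4 and, after ethephon, at 571 to 686 CPM on day 3, while Aco010452 stays between 176 and 362 CPM in every control.

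The effect of ethephon on day 3 differed from that on day 4 in 1763 of 22718 genes (7.76%) by an interaction test over 12 libraries, and from that on day 2 in 1045 of 22796 (4.58%). For the genes called up on day 3, the difference from day 4 was called in the same sense in 570 of 891 (64.0%), and for those called down in 339 of 684 (49.6%). The figures against day 2 were 287 (32.2%) and 350 (51.2%). Since the day 3 libraries enter both the choice of these genes and the difference, these shares are a description.

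Each other sampling has its own controls, so its calls can be set beside those of day 3. On day 4, too, the ethephon libraries lay together on a lane that held no leaf base control of that day. Lane and treatment therefore cannot be told apart there either, nor in the difference between the days. On day 4, 33 of the 891 genes called up on day 3 were called up (3.70%, against 1.40% of all genes) and 133 were called down (14.9%, against 2.23%). Of the 684 called down on day 3, 58 were called down on day 4 (8.48%) and 23 up. On day 2, where 0.898% of genes were called up and 0.582% down, 60 of the 891 were called up and 10 down, and 55 of the 684 were called down and 35 up. On day 1, with 0.748% of genes called up and 0.874% down, 4 of the 891 were up and 12 down, and 66 of the 684 were down and 58 up. At 6 h, with 8.59% up and 11.0% down, 151 of the 891 were up and 189 down, and 240 of the 684 were down and 153 up.

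Single genes show the turn from day 3 to day 4, with both days as read here from the labels. The ACS gene Aco015517 rose on day 3 and was lower than the control on day 4, at 37.5, 32.1 and 82.0 CPM against 111, 177 and 114 CPM. The difference between its effects was 3.97 ± 0.48 (log2, adjusted p = 1.22e-05). The EIN3/EIL gene Aco001697 differed by 3.48 ± 0.23 (adjusted p = 3.52e-08) and the WRKY gene Aco000358 by 4.23 ± 0.33 (adjusted p = 1.07e-07). Of the 12 ERTF genes called up on day 3, 1 was called up and 5 were called down on day 4. The study drew its ERTF list from genes DE at any of its apex or leaf base samplings, so the counts are no independent evidence. The differences in effect were 6.17 ± 0.54 for Aco022517, 5.35 ± 0.73 for Aco002699, 3.15 ± 0.25 for Aco006567, 3.06 ± 0.35 for Aco001600 and 2.81 ± 0.33 for Aco001318. The trehalose phosphate synthase Aco012107 was likewise up on day 3 and down on day 4 (-1.22), a difference of 2.67 ± 0.30 (adjusted p = 5.04e-06). Against day 2, the CONSTANS-like gene Aco003091 turned from a rise (1.21) to a fall, a difference of -3.16 ± 0.34 (adjusted p = 1.9e-05), and Aco006268 from 2.23 to -5.61, a difference of -7.86 ± 0.52 (adjusted p = 1.65e-07). Effects that were called on both day 3 and day 4 included those of Aco013756 (3.68 on day 4) and the remorin gene Aco014830 (1.69), whose differences from day 3 did not pass the test (adjusted p = 0.439 and 0.845). A difference that does not pass does not show equal effects.

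At the apex on day 3, 7.20% of 21707 genes tested were called up and 7.19% down. The apex controls of that day lay on a flow cell that held none of its apex ethephon libraries. Flow cell and treatment therefore cannot be told apart at the apex. Of the 891 genes called up in the leaf base, 299 (33.6%) were called up at the apex and 44 (4.94%) down, and of the 684 called down, 307 (44.9%) were called down and 26 (3.80%) up. The genes shared in direction make up 19.1% of the rises and 19.7% of the falls at the apex, and the median apex change was 0.70 and -0.99 for the 2 sets of leaf base genes. Several changes were seen in both tissues, as in Aco001643 (4.95 at the apex), Aco018350 (-5.94), Aco003129 (-5.98), the GIGANTEA-like Aco014347 (-1.63) and the sucrose phosphate synthase Aco017378 (4.28). For none of these did the difference between tissues pass the test, which does not show that the effects were equal. The estimated differences ran from -1.39 ± 0.63 (Aco017378) to 1.68 ± 0.66 (Aco003129). Of the 12 ERTF genes up in the leaf base, 7 were called up and 1 down at the apex, and of the 7 down, 5 were called down. The study listed these genes as DE at any of its apex or leaf base samplings, so this overlap is no independent evidence.

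The tissues differed by the interaction test in 2287 of 22824 genes (10.0%). The ACS gene Aco015517 was among them, up in the leaf base and down at the apex, where controls had 112, 93.4 and 189 CPM and ethephon libraries 12.5, 12.2 and 24.0 CPM, a difference of 5.59 ± 0.45 (adjusted p = 8.62e-09). The VIIa factor Aco009511 was opposite in sign too (-1.13 at the apex, difference 2.66 ± 0.27, adjusted p = 3.69e-07), as were the NINJA homolog Aco003903 (-2.66, difference 3.81 ± 0.39), the trehalose phosphate synthase Aco012107 (-2.06, difference 3.52 ± 0.35) and Aco013756 (-1.44, difference 6.42 ± 0.73). The EIN3/EIL gene Aco001697 rose at the apex as well (1.15), by 1.70 ± 0.28 less than in the leaf base (adjusted p = 1.29e-04). Aco012562, of ERTF group VI, fell in the leaf base and had -0.02 at the apex, a difference of -2.84 ± 0.40 (adjusted p = 2.23e-05).

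**Figure D5:**
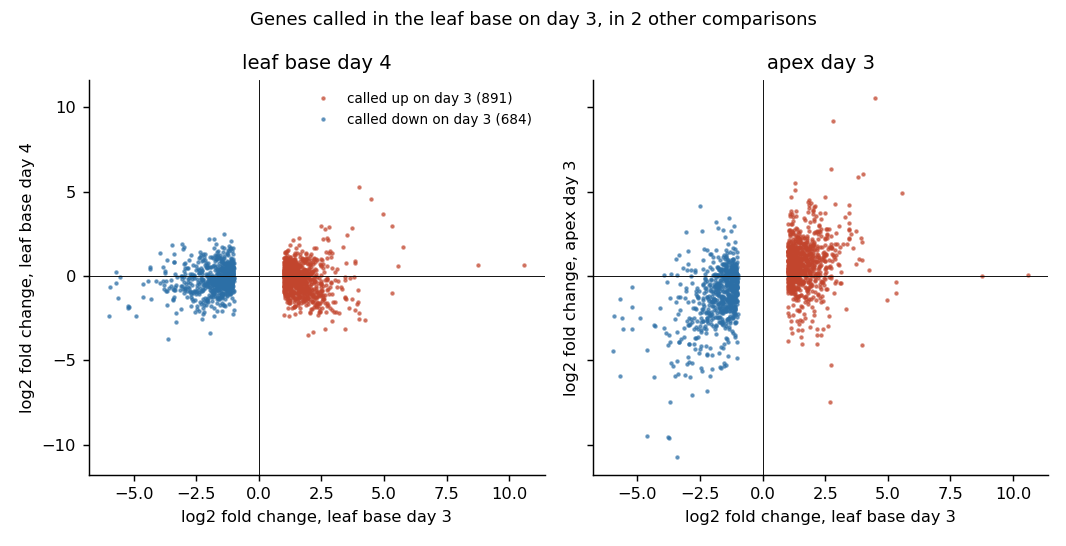
Log2 fold change on leaf base day 4 (left panel, y axis) and at the apex on day 3 (right panel, y axis) of the genes called in the leaf base on day 3, against their log2 fold change there (x axis), in red for genes called up and in blue for genes called down. At the apex most points follow the sign of the leaf base (medians 0.70 and -0.99), whereas on day 4 both sets centre near 0 (medians -0.12 and -0.21).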

How the data were processed

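The authors trimmed reads with Trimmomatic 0.36, aligned them with HISAT2 2.0.5 to version 3 of the pineapple genome, and deposited the counts of read pairs per gene made with featureCounts. Strand was not used and pairs with several positions were counted, so counts of near-identical, overlapping or antisense genes can be shared. SAMtools and FastQC 0.10.1 are also named in the submitters' processing notes.

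Ethephon was compared with control over genes with at least 1 count by the quasi-likelihood test of edgeR 4.0.16 (R 4.3.3, limma 3.58.1) after TMM scaling of the 6 libraries. Calls needed a Benjamini-Hochberg adjusted p under 0.05 and a 2-fold change. Differences between effects were interactions over 12 libraries. Levels are CPM with TMM factors over 78 libraries. Replicates are pools from field plots, and p-values measure the spread between these pools. The scripts were tested on simulated data.

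Alternatives were RLE, DESeq2 1.42.0, a filter of 1 CPM in 3 libraries, other fold limits, the replicate number as a block, the flow cell, a joint fit, and each library left out. Tables were written with data.table (version 1.17.8). Named genes are the called genes of lists taken from the study's text, the 12 largest rises and 12 largest falls of at least 5 CPM called in all 6 leave-one-out fits, and up to 3 called genes per keyword list over the gene descriptions at hand. Of 32 keyword lists, 5 matched no gene and 7 held a called gene. Members and lists were chosen with earlier results of these data known. No sequences were used here.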

Additional observations from a re-analysis of the deposited data

Results flagged for a closer look

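The results below stood out because the effect of ethephon in the leaf base on day 3 differed from its effect in another comparison by an interaction test. Counted over all genes, this was so for 1763 genes against the leaf base on day 4, 1045 against day 2 and 2287 against the apex on day 3. Values are day 3 minus the other effect, on the log2 scale. In the leaf base on day 3 and day 4 lane and treatment cannot be told apart, nor flow cell and treatment at the apex.

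Against the leaf base on day 4, the difference was 3.97 for the ACS gene Aco015517, -3.76 for the ACO gene Aco003285, -1.24 for the receptor Aco010452 and 3.48 for the EIN3/EIL gene Aco001697. Against day 2 it was -5.00 for Aco003285, -1.03 for Aco010452, 2.21 for Aco001697, 1.54 for the receptor Aco010603 and 1.77 for the EIN3/EIL gene Aco015335. Against the apex on day 3 it was 5.59 for Aco015517, -1.22 for the ACO gene Aco015240, 1.70 for Aco001697, 1.27 for the ACO gene Aco001358, -1.18 for Aco010603 and 1.66 for Aco015335. The genes Aco010603, Aco015335 and Aco001358 were not called on day 3 itself. Groups of 3 libraries are too small for a test of single libraries that stand apart, and none was run.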

How the results depend on the processing

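The count of 1575 genes (891 up, 684 down) stayed within 1.5 times under RLE normalization (1571), DESeq2 (1433), the low-count filter (1519) and the joint fit (1507). It was 3529 (1948 up, 1581 down) with no limit on the fold change and 404 (209 up, 195 down) where the change had to exceed 2 on the log2 scale. Without 1 library it was 1342 to 1594, and for the differences 1473 to 2047 against day 4, 829 to 1320 against day 2 and 2019 to 2410 against the apex. With the flow cell as a term, which in effect sets the ethephon libraries against control replicate 3, 1613 genes were called, 1184 of the 1575 among them, and 1573 kept their sign. The field held 3 replications, each with both treatments, but the labels do not tie a replicate number to one of them, and same-numbered deviations correlated at -0.095, 0.087 and -0.0059, so the numbers were not taken as pairs. With the number as a replicate block 1561 genes were called (882 up, 679 down), and for the differences 1803, 832 and 2330.

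Of 98 named genes with a fold change, 87 were called, and 74 of the 98 gave the same answer under every alternative. The named calls numbered 77 to 85 without 1 library. The flow cell term ended 15 of them. DESeq2 gave 4 named genes no adjusted p, and Aco027531 an adjusted p of 0.0506. The sign turned for Aco000276 (0.30 with the flow cell, and from -0.83 to 0.11 without 1 library, with 0.0015 without ethephon replicate 3) and Aco028694 (-0.087 with the flow cell), both uncalled, and the cause was not tested. With 5130171 to 7180761 counts per library, genes near 1 CPM rest on 5 to 7 counts and are measured least well.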
